A study of Mus musculus with 62 samples.

Results

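The genes described here are 35 genes that move fatty acids into muscle cells and mitochondria and oxidise them there. They were chosen by name from known function, in 5 roles, and all 35 have a value in each of the 4 experiments, whose tables list 29239, 21936, 21039 and 17896 genes. The uptake role holds 8 genes (Cd36, Fabp3, Lpl, Slc27a1, Slc27a4, Acsl1, Acsl3 and Angptl4) and the carnitine shuttle 7 (Cpt1a, Cpt1b, Cpt2, Slc25a20, Slc22a5, Crat and Mlycd). The β-oxidation spiral with its electron transfer proteins holds 12 (Acadvl, Acadl, Acadm, Acads, Hadha, Hadhb, Hadh, Echs1, Acaa2, Etfa, Etfb and Etfdh). A group of 3 auxiliary enzymes deals with unsaturated chains (Eci1, Eci2 and Decr1), and the last 5 are thioesterases, an uncoupling protein and a ketone enzyme (Acot1, Acot2, Acot13, Ucp3 and Bdh1).

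The study asked what the carbohydrate-responsive transcription factor ChREBP, encoded by Mlxipl, does in skeletal muscle, and measured RNA in 62 libraries of 14 groups. In the chow experiment gastrocnemius (GC, a mainly fast-twitch muscle) and soleus (SOL, a slow-twitch one) came from F/F mice, whose ChREBP gene carries loxP sites around exon 8, and from littermate ChMKO mice, which carry the same alleles and MCK-Cre (n = 5 each). MCK drives Cre in skeletal muscle and also in heart. The stress experiment sampled GC of both genotypes after normoxia (Norm), after 2 weeks of hypoxia simulating 5500 m of altitude (Hypo), or after 3 months on a diet with 68% of its calories from fructose (HFrD; n = 4 each). GC of wild-type C57BL6/J mice received AAV9 with CMV-driven GFP (AAV-GFP) or ChREBP (AAV-ChREBP) 14 days before sampling (n = 5 each). C2C12, a mouse myoblast line, was measured on day 7 of differentiation with an empty vector (C2C12_CON) or overexpressing ChREBP (C2C12_Ch-OE; n = 4 each), where each arm is 1 stable, puromycin-selected line and the 4 libraries are not separate lines. The mice were males of 8 to 10 weeks unless stated otherwise, and the age at sampling of the Norm mice that HFrD mice are compared with is not given in the sources used here.

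Long-chain fatty acids reach muscle from triglycerides that lipoprotein lipase (Lpl) splits at the capillary wall, enter fibers with the help of CD36 and FATP transporters, and are carried by the binding protein FABP3. Acyl-CoA synthetases activate them, CPT1, the carnitine carrier and CPT2 pass them into the mitochondrion, and the β-oxidation spiral shortens them, handing electrons to the respiratory chain through the flavoproteins ETFA, ETFB and ETFDH. Slow-twitch fibers rely on this route more than fast glycolytic fibers, and many of its genes respond to the nuclear receptors PPAR and ERR and to their coactivator PGC-1α.

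All values are FPKM, fragments scaled to gene length and library total, and differences are on the log2(FPKM + 1) scale unless said otherwise. A gene counts as called where limma, fitted over all genes of a comparison, gave a Benjamini-Hochberg adjusted p under 0.05. Values of single libraries are listed from lowest to highest, and means carry the SD over the libraries of a group. The labels number the libraries and do not say whether GC and SOL libraries of one number came from one mouse.

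Promoter windows of these genes were looked up because most of the 35 genes were higher in one muscle than in the other, as described further down. RefSeq windows of 300 bases on GRCm38.p6, from 250 bases before to 50 after an annotated transcript start, were found for 28 of the 35 genes. No window was found for Acaa2, Acot13, Angptl4, Cpt1b, Crat, Decr1 and Lpl. The hexamer AGGTCA, which nuclear receptors such as the PPARs read, was searched on both strands, as were a direct repeat of it spaced by 1 base (AGGTCANAGGTCA), the ERR element TCAAGGTCA, which contains the hexamer, the E-box CACGTG and the paired E-boxes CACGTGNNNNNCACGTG read by ChREBP. The hexamer stood in windows of 6 of the 28 genes (21.4%, Acadm, Acadvl, Cd36, Cpt1a, Echs1 and Ucp3), against 18.1% of 27025 genes with a window. The spaced repeat, the ERR element and the paired E-boxes were in none of the 28, and in 0.048%, 0.466% and 0% of all genes. Since the paired E-boxes in this exact form were in no window of any gene, their absence here says nothing about these genes. Slc27a1 alone held the E-box, 202 bases before a transcript start that lies 1721 bases inside the gene model of the chow table, a share of 3.57% against 8.09% of all genes. Of these windows 4 are shown, those of the genes with a hexamer that are followed in every group below, with AGGTCA or its reverse complement TGACCT in capitals. Read along the gene's strand, its first base lies 249 bases before the transcript start in Acadm (chr3:153944594-153944893, minus strand) and 228 before it in Cd36 (chr5:17835847-17836146, minus strand), where that start lies 53063 bases inside the gene model. It lies 94 bases before a transcript start in Cpt1a that is 976 bases inside the gene model (chr19:3323051-3323350, plus strand), and in Ucp3, with a pair of them, 149 and 44 bases before (chr7:100472741-100473040, plus strand). A match in a window is a description of its letters and not a site shown to be bound.
Acadm: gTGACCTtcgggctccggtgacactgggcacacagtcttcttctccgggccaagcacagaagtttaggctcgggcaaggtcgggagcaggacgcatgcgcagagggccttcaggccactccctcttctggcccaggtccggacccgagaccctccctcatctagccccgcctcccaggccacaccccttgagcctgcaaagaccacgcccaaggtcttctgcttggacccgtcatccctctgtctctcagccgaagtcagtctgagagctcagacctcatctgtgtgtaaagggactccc
Cd36: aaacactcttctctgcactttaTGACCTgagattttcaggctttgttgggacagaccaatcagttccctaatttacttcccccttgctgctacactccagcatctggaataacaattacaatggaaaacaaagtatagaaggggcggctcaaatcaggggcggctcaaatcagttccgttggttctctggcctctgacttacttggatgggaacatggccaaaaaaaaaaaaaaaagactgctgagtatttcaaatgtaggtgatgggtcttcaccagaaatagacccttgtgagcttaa
Cpt1a: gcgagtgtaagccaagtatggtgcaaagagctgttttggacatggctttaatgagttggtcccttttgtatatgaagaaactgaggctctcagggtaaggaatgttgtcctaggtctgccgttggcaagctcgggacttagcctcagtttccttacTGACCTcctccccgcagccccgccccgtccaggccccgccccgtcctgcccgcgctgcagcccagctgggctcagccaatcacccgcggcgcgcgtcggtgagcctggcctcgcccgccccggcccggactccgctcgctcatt
Ucp3: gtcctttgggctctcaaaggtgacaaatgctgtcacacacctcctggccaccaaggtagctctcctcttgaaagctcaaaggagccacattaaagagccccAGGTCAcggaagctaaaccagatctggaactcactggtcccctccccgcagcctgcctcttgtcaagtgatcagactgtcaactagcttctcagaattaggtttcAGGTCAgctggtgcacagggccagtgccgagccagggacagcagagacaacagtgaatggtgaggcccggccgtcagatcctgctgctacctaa

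The libraries were first checked against their labels. Mlxipl, read over the whole gene although only exon 8 is removed, was lower in ChMKO than in F/F in Norm (log2 fold change -1.16, adjusted p = 0.00655), Hypo (log2 fold change -1.27, adjusted p = 0.00297) and HFrD (log2 fold change -0.92, adjusted p = 0.00307). On chow its log2 fold change was -0.63 in GC (adjusted p = 0.413, groups without overlap) and -0.47 in SOL (adjusted p = 0.384). It was higher by 2.74 in AAV-ChREBP and by 3.84 in C2C12_Ch-OE. Skeletal muscle markers summed to 30100 FPKM or more in every chow library, and 5 slow-twitch markers to 6270 to 10200 in SOL against 3.73 to 153 in GC. The 24 stress libraries fell into 2 sets of 12 on the first principal component of 10684 genes other than the 35, which held 61.7% of the variance. Set A holds all 8 HFrD libraries, libraries N_WTc397 and N_WTc401 of Norm F/F and H_WTc360 and H_WTc361 of Hypo F/F, and set B the other 12 Norm and Hypo libraries. Mitochondrially encoded reads were 15.4% to 18.3% in set A and 6.68% to 13.9% in set B, and neither labels nor headers name what parts the sets. Results that touch them are given below with their values within a set or with a term for the sets, where the design allows one.

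The first question was how the 2 muscles differ. In F/F mice 32 of the 35 genes were higher in SOL than in GC and none was lower, against 50.4% of 13235 genes called in either direction and 37.9% called higher. The median log2 fold change of the 35 was 1.12, and that of all genes tested 0.18. All 12 genes of the β-oxidation spiral and electron transfer, all 7 of the carnitine shuttle, all 3 auxiliary enzymes, 6 of 8 uptake genes and 4 of 5 in the last role were called. The 2 groups did not overlap for 28 of the 35, all higher, against 26.3% of all genes higher without overlap. By the limit the study used, an absolute log2 fold change of 1 with an unadjusted p under 0.05, 21 of the 35 passed, against 7.99% of all genes. In ChMKO mice 34 of 35 were called, 32 higher and 2 lower, against 57.9% of 13080 genes (41.0% higher and 16.9% lower), with a median of 1.24 against 0.15 for all genes. In whole muscle, more cells of a type and more RNA per cell cannot be told apart.

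**Figure D1:**
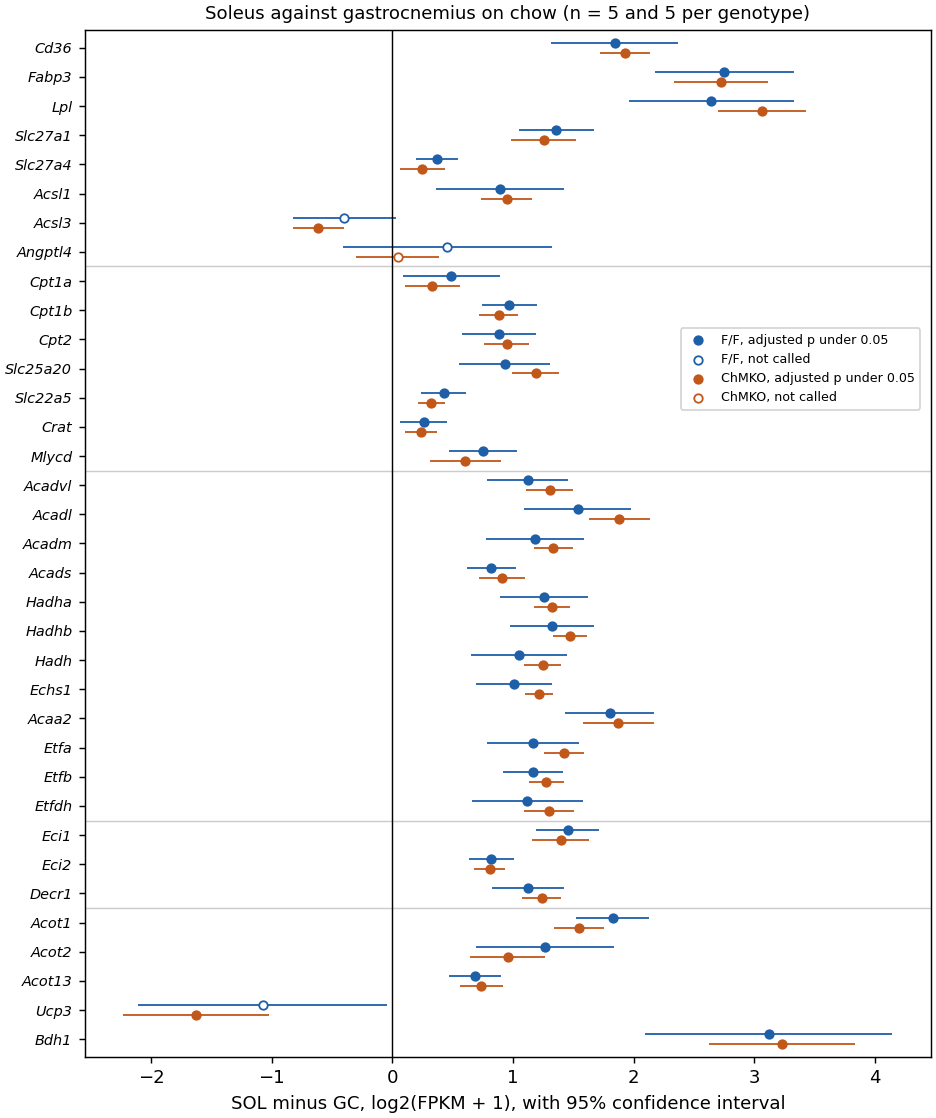
Log2 fold change of each of the 35 genes between SOL and GC on chow, with its 95% interval, in F/F and in ChMKO mice; filled points have an adjusted p under 0.05 and open ones do not. Nearly all points lie to the right of 0, with Bdh1, Lpl and Fabp3 farthest out, and Ucp3 and Acsl3 lie to the left.

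Among uptake genes wide differences were those of Lpl, which frees fatty acids in the capillary bed, and Fabp3, the cytosolic fatty acid carrier of muscle and heart. Lpl (chr8:68880555-68906932, plus strand, GRCm38) measured 37.8, 69.05, 73.5, 95.6 and 176 FPKM in F/F GC and 437, 468, 531, 531 and 569 in F/F SOL (log2 fold change 2.65, 95% interval 1.96 to 3.33, adjusted p = 6.20e-05). Its values in ChMKO were 57.01, 58.8, 70.8, 96.1 and 110.5 FPKM in ChMKO GC and 615, 618, 638, 668 and 678 in ChMKO SOL (log2 fold change 3.06, 95% interval 2.70 to 3.43, adjusted p = 5.62e-08). The lowest SOL library lay above the highest GC library in each genotype, and Lpl, with means of 507 ± 53.4 and 643 ± 28.6 FPKM in SOL, ranked first among the 35 there. Fabp3 gave 6.25, 6.80, 7.03, 9.96 and 16.4 FPKM in F/F GC and 41.2, 59.9, 63.1, 76.9 and 93.3 in F/F SOL (log2 fold change 2.75, 95% interval 2.18 to 3.33, adjusted p = 1.60e-05). In ChMKO it rose from 8.13 ± 2.78 to 57.3 ± 4.20 FPKM (log2 fold change 2.73, adjusted p = 2.44e-07). The chow table lists Fabp3 in 2 rows, of which the one with the higher mean, on an alternate scaffold, was used, and with both rows summed the log2 fold change was 1.75 in F/F and 1.75 in ChMKO (adjusted p = 0.000263 and 0.000822), below that of Cd36. The row not used averaged 17.3 FPKM in ChMKO GC and 17.8 in ChMKO SOL. Fabp3 averaged 9.29 FPKM in F/F GC here, but 425 in GC of Hypo F/F, its lowest stress group, and 137 in AAV-ChREBP. The chow values therefore cannot be read as its level, and the size of its difference between the muscles is uncertain.

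Cd36, the plasma membrane fatty acid translocase (chr5:17781690-17888959, minus strand), read 18.8, 29.6, 31.9, 46.1 and 54.9 FPKM in F/F GC and 106, 109, 127, 138 and 148 in F/F SOL, a mean 3.46 times as high in SOL (log2 fold change 1.84, 95% interval 1.31 to 2.37, adjusted p = 0.000123). In ChMKO it read 25.7, 27.9, 29.6, 31.3 and 37.4 FPKM in ChMKO GC and 107, 109, 121, 124 and 129.98 in ChMKO SOL (log2 fold change 1.93, 95% interval 1.72 to 2.14, adjusted p = 3.23e-08). Slc27a1, which encodes the transporter FATP1, rose from 19.1, 21.1, 27.2, 27.6 and 29.2 FPKM in F/F GC to 55.2, 55.9, 62.9, 70.7 and 81.0 in F/F SOL (log2 fold change 1.36, 95% interval 1.05 to 1.67, adjusted p = 2.87e-05). For both genes every SOL library stood above every GC library. Slc27a4, another FATP transporter, differed by 0.37 in F/F and 0.25 in ChMKO, and Acsl1, the main acyl-CoA synthetase of muscle, by 0.89 and 0.95, all called. The other 2 uptake genes were not called in F/F. Acsl3, another acyl-CoA synthetase, was 5.70 ± 1.96 FPKM in F/F GC and 3.99 ± 0.999 in F/F SOL (adjusted p = 0.109) and fell by 0.61 in ChMKO (adjusted p = 0.00022). Angptl4, a secreted inhibitor of lipoprotein lipase, spanned 0.0962 to 2.19 FPKM in F/F GC and 0.518 to 3.94 in F/F SOL, with wide overlap (adjusted p = 0.358 in F/F and 0.823 in ChMKO).

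**Figure D2:**
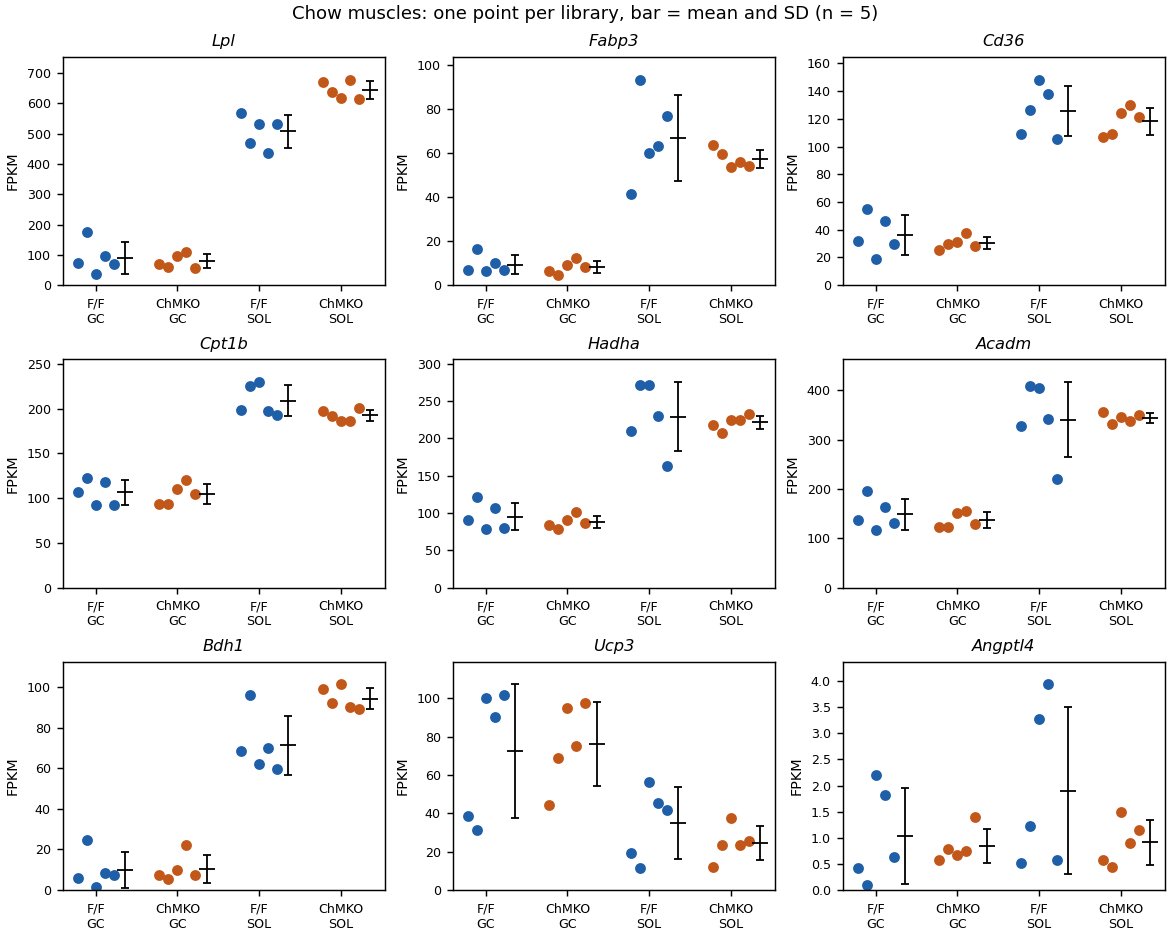
FPKM of 9 of the genes in every chow library, by muscle and genotype, with the mean and SD of each group of 5. Lpl, Fabp3, Cd36, Cpt1b, Hadha, Acadm and Bdh1 stand higher in SOL, Ucp3 stands lower on average, and Angptl4 overlaps.

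The carnitine shuttle was higher in SOL throughout, by less than the spiral, with medians of 0.75 in F/F and 0.60 in ChMKO. Cpt1b, the muscle form of carnitine palmitoyltransferase 1 and the rate-setting step of entry (chr15:89416405-89425862, minus strand), measured 92.0, 92.8, 107, 118 and 123 FPKM in F/F GC and 193, 197, 199, 226 and 229.8 in F/F SOL (log2 fold change 0.97, 95% interval 0.74 to 1.20, adjusted p = 3.29e-05). In ChMKO the values were 93.3, 93.4, 105, 110.5 and 121 FPKM in ChMKO GC and 187, 187, 192, 197 and 200.4 in ChMKO SOL (log2 fold change 0.88, adjusted p = 1.57e-06). No SOL library came down to the GC range. Cpt1a, the form that prevails in liver, was low in both muscles, 1.78 ± 0.550 FPKM in F/F GC and 2.92 ± 0.918 in F/F SOL (log2 fold change 0.49, adjusted p = 0.0442), and each library held at least 39.6 times as much Cpt1b as Cpt1a. The call of Cpt1a was lost without the filter on low values (adjusted p = 0.0877) and after rescaling of libraries by median ratios (0.183, and 0.109 in ChMKO), and in F/F without any one of GC 57, 58 and 69 and SOL 58, 69, 70 and 71 (0.0549 to 0.104). The other shuttle genes are Slc25a20 (the carnitine-acylcarnitine carrier, 0.93 in F/F and 1.19 in ChMKO), Cpt2 (0.88 and 0.95) and Mlycd (malonyl-CoA decarboxylase, 0.75 and 0.60). Crat (carnitine acetyltransferase, 0.26 and 0.24) and Slc22a5 (the carnitine importer OCTN2, 0.43 and 0.32) differed least, and all were called.

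In the β-oxidation spiral the log2 fold changes ran from 0.82 to 1.80 in F/F and from 0.91 to 1.88 in ChMKO. Acaa2, the thiolase that ends the spiral, measured 57.8, 59.9, 63.9, 77.6 and 110.4 FPKM in F/F GC and 223, 236, 239, 267 and 305 in F/F SOL (log2 fold change 1.80, 95% interval 1.43 to 2.17, adjusted p = 1.52e-05). Etfb, a subunit of the electron transfer flavoprotein, measured 142, 148, 165, 183 and 190.1 FPKM in F/F GC and 329, 331, 368.8, 415 and 416 in F/F SOL (log2 fold change 1.16, 95% interval 0.91 to 1.41, adjusted p = 1.94e-05), and it was the member of highest mean level in GC of both genotypes. In ChMKO Etfb rose from 124, 134, 143, 155 and 156 to 337, 342, 343, 346 and 357 FPKM (log2 fold change 1.28, adjusted p = 4.45e-08). Each pair of groups was fully apart. Acadm, the medium-chain acyl-CoA dehydrogenase, gave 117, 131, 136, 163 and 195 FPKM in F/F GC and 221, 328, 340.99, 405 and 409 in F/F SOL (log2 fold change 1.18, adjusted p = 0.000398). Its ChMKO values were 123, 123, 129, 151 and 156 FPKM in ChMKO GC and 331, 338, 346, 351 and 356 in ChMKO SOL (log2 fold change 1.34, adjusted p = 7.53e-08). The first enzymes for other chain lengths rose as well, Acadvl by 1.12 and 1.31, Acadl by 1.54 and 1.88, and Acads by 0.82 and 0.91 in F/F and ChMKO.

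Hadha and Hadhb encode the 2 subunits of the mitochondrial trifunctional protein and lie head to head on chromosome 5 (30118304 to 30154980, minus strand, and 30155253 to 30184593, plus strand, GRCm38). Hadha measured 78.2, 79.2, 90.1, 107 and 121 FPKM in F/F GC and 162, 209, 230.4, 272 and 272 in F/F SOL (log2 fold change 1.26, adjusted p = 0.000135), and 78.3, 84.0, 85.9, 90.1 and 101 FPKM in ChMKO GC and 208, 217, 224, 225 and 232 in ChMKO SOL (log2 fold change 1.33, adjusted p = 4.03e-08). Hadhb measured 34.0, 34.3, 34.5, 35.7 and 41.3 FPKM in ChMKO GC and 92.1, 100.3, 103, 105 and 107 in ChMKO SOL (log2 fold change 1.47, adjusted p = 1.59e-08), and differed by 1.32 in F/F. The subunits thus differed between muscles by similar amounts, and every SOL library of ChMKO mice lay above every GC library for both. Echs1, the short-chain enoyl-CoA hydratase, had the smallest p of the 35 in ChMKO, at 39.2, 42.2, 43.8, 44.2 and 44.4 FPKM in ChMKO GC and 97.4, 98.2, 98.4, 98.8 and 109 in ChMKO SOL (log2 fold change 1.21, adjusted p = 1.59e-08). Etfa, the partner of Etfb, measured 96.8, 97.6, 103, 104 and 122 FPKM in ChMKO GC and 254, 276, 279.8, 287 and 315 in ChMKO SOL (log2 fold change 1.42, adjusted p = 5.22e-08). Hadh, the hydroxyacyl-CoA dehydrogenase, rose by 1.05 in F/F and 1.25 in ChMKO, and Etfdh, which passes the electrons on to ubiquinone, by 1.12 and 1.30.

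The auxiliary enzymes moved with the spiral. Eci1, an enoyl-CoA isomerase, measured 55.2, 65.2, 66.4, 68.3 and 86.6 FPKM in F/F GC and 173, 173, 177, 206 and 211 in F/F SOL (log2 fold change 1.45, 95% interval 1.20 to 1.71, adjusted p = 6.27e-06). Eci2, another such isomerase, found in peroxisomes too, measured 23.9, 24.3, 25.2, 25.2 and 25.4 FPKM in F/F GC and 37.2, 43.2, 44.0, 49.1 and 50.4 in F/F SOL (log2 fold change 0.82, 95% interval 0.63 to 1.01, adjusted p = 2.79e-05). Both were apart in every library, and in ChMKO they rose by 1.40 and 0.81. Decr1, the 2,4-dienoyl-CoA reductase, rose by 1.12 and 1.24.

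On the log2(FPKM + 1) scale the last role held the largest rise and the clearest fall. By the ratio of group means Acot1 rose more than Bdh1. In F/F its mean went from 0.253 FPKM in GC, near the floor, to 3.49 in SOL, and that of Bdh1 from 9.68 to 71.25. Bdh1, the ketone enzyme 3-hydroxybutyrate dehydrogenase (chr16:31422297-31458901, plus strand), measured 1.52, 6.01, 7.54, 8.49 and 24.8 FPKM in F/F GC and 59.8, 62.2, 68.4, 69.9 and 95.9 in F/F SOL (log2 fold change 3.12, 95% interval 2.10 to 4.14, adjusted p = 0.000288). The values in ChMKO were 5.20, 7.23, 7.42, 9.79 and 22 FPKM in ChMKO GC and 89.4, 90.1, 92.1, 98.8 and 101 in ChMKO SOL (log2 fold change 3.23, 95% interval 2.63 to 3.84, adjusted p = 1.96e-06). The GC libraries of each genotype spread widely, yet none reached SOL. Acot1, a cytosolic acyl-CoA thioesterase, was below 0.51 FPKM in every GC library and at 2.74, 2.83, 2.94, 4.14 and 4.82 FPKM in F/F SOL (log2 fold change 1.83, 95% interval 1.53 to 2.12, adjusted p = 4.28e-06), while Acot2, its mitochondrial relative, was 4.26 ± 1.34 FPKM in F/F GC and 12.2 ± 5.46 in F/F SOL (log2 fold change 1.26, adjusted p = 0.0022). These neighbours on chromosome 12 are near-identical, so reads could be split between them. Acot13 rose by 0.68 in F/F and 0.74 in ChMKO. Ucp3, the muscle uncoupling protein (chr7:100472991-100486432, plus strand), went the other way, at 31.0, 38.4, 90.4, 100.3 and 102 FPKM in F/F GC and 11.5, 19.2, 41.9, 45.5 and 56.2 in F/F SOL (log2 fold change -1.08, 95% interval -2.11 to -0.05, adjusted p = 0.0766) and 44.1, 69.02, 75.1, 95.1 and 97.4 FPKM in ChMKO GC and 12.0, 23.7, 23.7, 25.6 and 37.3 in ChMKO SOL (log2 fold change -1.63, 95% interval -2.23 to -1.02, adjusted p = 0.000385). The groups overlapped in F/F, where the call was reached after rescaling (0.0411), without GC library 58 (0.0358) and without SOL library 69 (0.0486).

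Other cell types moved with the muscles: 7 endothelial markers summed to 146 to 322 FPKM in SOL and 69.6 to 111 in GC, and 8 adipocyte markers to 285 to 627 and 135 to 238. Red blood cell markers summed to 154 to 354 FPKM in SOL and 61.9 to 123 in GC, and 2 brown adipocyte markers to 2.96 to 6.95 and 0.307 to 0.858, with no adipocyte or endothelial marker at 0 throughout a group. Their part in the result was not tested. Rescaling, which moved the median of all genes in F/F from 0.18 to -0.01 and the share of higher calls from 75.1% to 47.0%, left 29 higher and 2 lower in F/F. In ChMKO it left 29 and 2, with the share of higher calls among all genes going from 70.7% to 48.2%.

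Among chow GC libraries the 3 highest levels of the 35 genes and the 3 highest slow-twitch sums fell in the same libraries, but the order did not hold beyond them. The 3 GC libraries with the highest sums of slow-twitch markers, F/F 58 (153 FPKM), ChMKO 72 (117) and F/F 70 (73.1), had the 3 highest mean log2 levels of the 35 genes, 5.10, 4.99 and 4.99, where the other GC libraries lay between 4.59 and 4.88. ChMKO 61 had a sum of 5.96 FPKM and a level of 4.88, and F/F 71 a sum of 57.7 and a level of 4.73. In the stress experiment H_KOc345 of Hypo ChMKO had the highest sum, 565 FPKM, and the lowest level of its group, 4.32. The median coefficient of variation of the genes at 5 FPKM or more was 19.5% in F/F GC and 17.5% in F/F SOL, and 13.8% and 6.60% in ChMKO.

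The second question was whether loss of ChREBP changed these genes on chow. In GC none of the 34 tested was called (Acot1 was too low), against 0.0236% of 12724 genes called. Only Acsl3, at 4.05, 4.15, 4.63, 7.68 and 7.98 FPKM in F/F GC and 6.86, 7.54, 7.67, 9.18 and 10.1 in ChMKO GC, had an unadjusted p under 0.05 (log2 fold change 0.50, unadjusted p = 0.0169, adjusted p = 0.9996), against 4.63% of all genes. Of the 34, 29 had a negative log2 fold change, among them all 12 of the spiral, which lay between -0.21 and -0.08, where 52.6% of all genes were positive. These differences were below the spread between mice. Cpt1b was 107 ± 14.1 FPKM in F/F GC and 105 ± 11.7 in ChMKO GC (log2 fold change -0.02, interval -0.25 to 0.21), and Lpl 90.4 ± 52.1 FPKM in F/F GC and 78.6 ± 23.7 in ChMKO GC (interval -0.82 to 0.68).

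In SOL none of the 35 was called either, against 0.0225% of 13348 genes, and 7 had an unadjusted p under 0.05 against 9.74%. Lpl was higher in ChMKO, at 437, 468, 531, 531 and 569 FPKM in F/F SOL and 615, 618, 638, 668 and 678 in ChMKO SOL (log2 fold change 0.35, unadjusted p = 0.00138, adjusted p = 0.282), and Slc27a1 lower, at 55.2, 55.9, 62.9, 70.7 and 81.0 FPKM in F/F SOL and 43.5, 45.2, 48.7, 48.8 and 54.1 in ChMKO SOL (log2 fold change -0.42, unadjusted p = 0.00265, adjusted p = 0.353). These were the 2 genes of the 35 whose groups did not overlap, against 2.05% of all genes. Bdh1 (0.42) and Acsl3 (0.29) had higher means in ChMKO, and Mlycd (-0.35), Acot1 (-0.37) and Cpt1a (-0.38) lower ones, with adjusted p from 0.375 to 0.477. Cd36 was 126 ± 18.3 FPKM in F/F SOL and 118 ± 9.99 in ChMKO SOL (interval -0.31 to 0.15) and Fabp3 66.9 ± 19.5 FPKM in F/F SOL and 57.3 ± 4.20 in ChMKO SOL (interval -0.56 to 0.21). The difference between muscles was itself not shown to depend on genotype: the interaction called none of the 35, against 0.00759% of all genes.

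**Figure D3:**
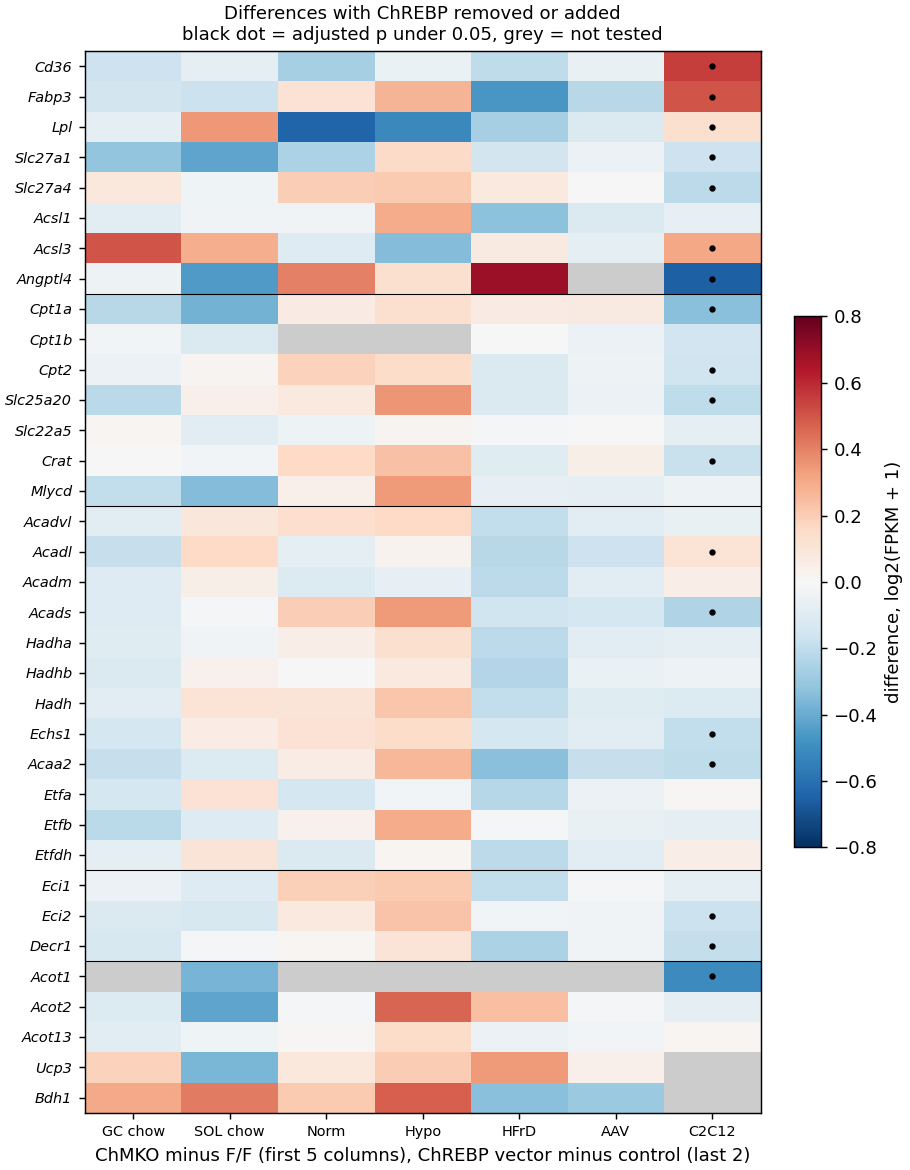
Log2 fold change of the 35 genes in the 5 contrasts of ChMKO with F/F and the 2 overexpression contrasts, coloured from -0.8 to 0.8, with a black dot for an adjusted p under 0.05 and grey for a gene not tested. Dots stand only in the C2C12 column.

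In the stress experiment, too, no gene of the 35 was called between ChMKO and F/F. In Norm 33 were tested (Acot1 and Cpt1b were too low), against 0.00922% of 10848 genes called, and 2 had an unadjusted p under 0.05 against 11.1%. They were Lpl, at 38.4, 63.3, 79.1 and 83.5 FPKM in Norm F/F and 28.7, 38.9, 43.6 and 53.5 in Norm ChMKO (log2 fold change -0.64, unadjusted p = 0.038, adjusted p = 0.418), and Slc27a1 (log2 fold change -0.26, unadjusted p = 0.036, adjusted p = 0.418). The groups overlapped for both. In Hypo none of 33 had an unadjusted p under 0.05, against 5.27% of 10628 genes, and 0.00941% were called. Of the 8 Norm and Hypo F/F libraries 4 belong to set A, and all ChMKO libraries to set B. Within set B the median log2 fold change went from 0.05 to -0.12 in Norm and from 0.15 to -0.01 in Hypo, so that its direction was not stable, and no gene was called. With a term for the sets in the limma fit of Norm, Lpl was at -0.29 (unadjusted p = 0.284) and Slc27a1 at -0.31 (unadjusted p = 0.0255). Acsl3 (0.60, unadjusted p = 0.00784) and Hadh (-0.29, unadjusted p = 0.0386) came under 0.05 there as well. The adjusted p of each of these genes was 0.978.

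On HFrD, where all libraries belong to set A, 28 of 34 genes had a negative log2 fold change in ChMKO against F/F and none was called (0.0190% of 10515 genes called, 45.7% positive). The unadjusted p lay under 0.05 for 18 of the 34 genes, against 7.36% of all genes, and for 11 of the 12 genes of the spiral, all 12 of which were negative. The exception, Etfb, has values in the stress table that cannot be read as its level, as told below, and it is 1 of the 12 in each count of the spiral in that table. Fabp3 measured 593, 602, 808 and 843 FPKM in HFrD F/F and 378, 539, 553 and 592 in HFrD ChMKO (log2 fold change -0.47, unadjusted p = 0.0165, adjusted p = 0.638). Acaa2 measured 82.4, 84.2, 93.3 and 99.5 FPKM in HFrD F/F and 58.2, 72.7, 76.0 and 78.8 in HFrD ChMKO (log2 fold change -0.33, unadjusted p = 0.00687, adjusted p = 0.585). Acsl1 measured 35.5, 35.7, 36.2 and 43.1 FPKM in HFrD F/F and 27.0, 29.1, 31.1 and 31.9 in HFrD ChMKO (log2 fold change -0.33, unadjusted p = 0.00154, adjusted p = 0.545). In these 3 genes every ChMKO library was below every F/F library. The same held for Decr1 (-0.25), Etfa (-0.23), Acadl (-0.22) and Hadh (-0.20), 7 genes in all, against 2.95% of all genes lower without overlap. The smallest adjusted p of the 34 was 0.545. Slow-twitch markers summed to 131 to 170 FPKM in F/F and 52.4 to 226 in ChMKO, and the library with the lowest sum, KO_C309, was also the lowest in Fabp3, Hadha, Acadl and Acaa2. The part of slow fibers in the difference was not tested.

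The third question was the effect of hypoxia, in each genotype. In F/F none of 33 genes was called, nor was any of 10740 genes (0%), and 2 of the 33 had an unadjusted p under 0.05, against 3.83% of all. One was Ucp3, at 64.5, 73.2, 87.7 and 93.8 FPKM in Norm F/F and 41.2, 44.2, 45.6 and 47.2 in Hypo F/F (log2 fold change -0.81, unadjusted p = 0.000229, adjusted p = 0.9996). The other was Slc22a5, at 4.40, 4.46, 4.50 and 4.57 FPKM in Norm F/F and 3.11, 3.29, 3.74 and 4.13 in Hypo F/F (log2 fold change -0.27, unadjusted p = 0.0227, adjusted p = 0.9996). Both were lower in Hypo in every library, against 2.65% of all genes lower without overlap. Each group holds 2 libraries of either set. Within set A Ucp3 was called at -0.98 (adjusted p = 0.0123, 2 libraries a group), the only one of the 32 tested there, where 80 of 10698 genes (0.748%) were called, and within set B it was -0.65 with an unadjusted p of 0.00452. With a term for the sets its adjusted p was 0.101. In ChMKO, where all 8 libraries belong to set B, none of 33 genes was called, against 0.890% of 10676. Ucp3 was 89.2 ± 39.1 FPKM in Norm ChMKO and 55.4 ± 24.2 in Hypo ChMKO there (log2 fold change -0.69, unadjusted p = 0.0706, adjusted p = 0.379).

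Cd36 and Slc27a1 were the only ones of the 33 that were higher without overlap in ChMKO after hypoxia, against 3.24% of all genes. Cd36 measured 81.6, 84.8, 114 and 118 FPKM in Norm ChMKO and 123, 137, 144 and 149 in Hypo ChMKO (log2 fold change 0.49, unadjusted p = 0.00443, adjusted p = 0.128), and Slc27a1 6.69, 7.70, 8.73 and 9.08 FPKM in Norm ChMKO and 9.26, 10.02, 11.4 and 15.5 in Hypo ChMKO (log2 fold change 0.45, unadjusted p = 0.0123, adjusted p = 0.192). In F/F the same genes differed by 0.28 and 0.05. Among the 12 genes of the spiral Hadha was 47.4 ± 12.3 FPKM in Norm F/F and 44.4 ± 8.04 in Hypo F/F and 48.1 ± 3.39 FPKM in Norm ChMKO and 48.7 ± 10.2 in Hypo ChMKO, and Acadm 85.9 ± 8.90 FPKM in Norm F/F and 81.1 ± 7.66 in Hypo F/F and 79.6 ± 10.01 FPKM in Norm ChMKO and 77.8 ± 11.3 in Hypo ChMKO, all within their spread. The interaction of genotype and hypoxia called none of 33 genes or of all 10751. Of the genes tested 1.23% had an unadjusted p under 0.05. Slow-twitch markers summed to 6.31 to 125 FPKM in Norm ChMKO and 70.1 to 565 in Hypo ChMKO, and to 15.8 to 123 in Norm F/F and 92.3 to 517 in Hypo F/F. These ranges overlapped in each genotype. Liver markers were apart in ChMKO, at 21.8 to 264 FPKM in Norm and 0.273 to 13.2 in Hypo. The part of these cell types in the differences after hypoxia was not tested.

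**Figure D4:**
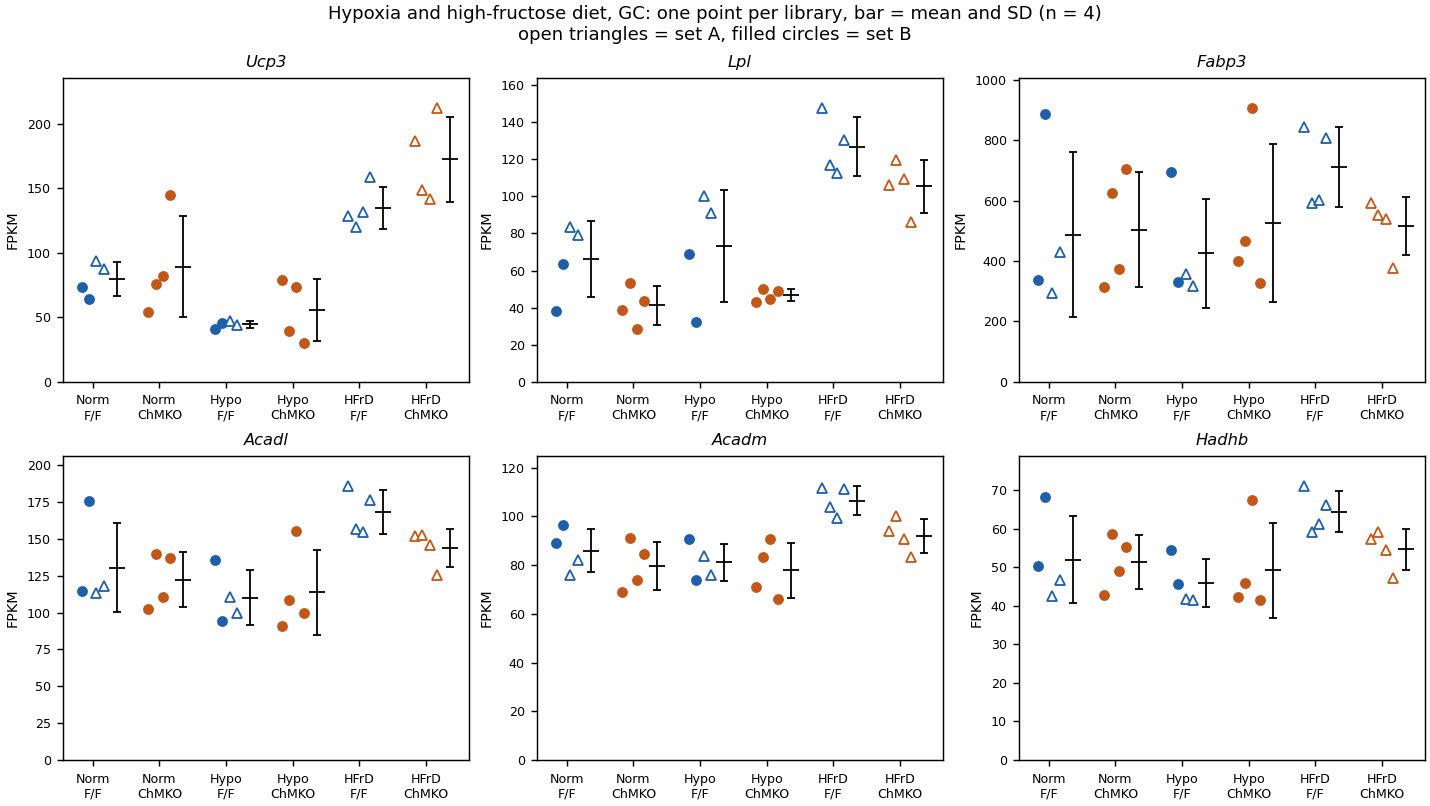
FPKM of 6 genes in every library of the stress experiment, by condition and genotype, with open triangles for set A and filled circles for set B. Ucp3 has its lowest means in Hypo and its highest in HFrD, and Lpl is higher in HFrD than in Norm.

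The fourth question was the high-fructose diet, with the same 8 Norm libraries as comparator as for hypoxia. In F/F none of 34 genes was called, nor any of 10707 (0%), and 8 of the 34 had an unadjusted p under 0.05, against 23.6%. Lpl measured 38.4, 63.3, 79.1 and 83.5 FPKM in Norm F/F and 113, 117, 130.3 and 148 in HFrD F/F (log2 fold change 0.98, unadjusted p = 0.00202, adjusted p = 0.145). Ucp3 measured 64.5, 73.2, 87.7 and 93.8 FPKM in Norm F/F and 120.3, 128, 132 and 158 in HFrD F/F (log2 fold change 0.76, unadjusted p = 0.000411, adjusted p = 0.145). These 2 genes and Cd36 (0.43), Acadm (0.31), Etfa (0.29) and Cpt1b (0.29, from values that cannot be read as its level in this table) were higher on HFrD without overlap, 6 of 34 against 2.87% of all genes. Slc22a5 alone was lower without overlap (-0.12), against 13.3% of all genes. Within set A, which leaves N_WTc397 and N_WTc401 of Norm F/F, 4 of 34 were called, all higher, where 99 of 10599 genes (0.934%) were called. They were Lpl (0.63, adjusted p = 0.0445), Acadl (0.53, 0.0413), Acadm (0.43, 0.0413) and Hadhb (0.52, 0.0439). With all libraries and a term for the sets, these 4 had the same log2 fold changes and adjusted p from 0.1365 to 0.217. That fit called none of the 34 and 0 of 10707 genes. Within set A 30 of the 34 were positive, with a median of 0.28 against -0.04 for all genes, and all 12 genes of the spiral were positive, as they were after rescaling of all libraries (9 of 12 without it). Slow-twitch markers summed to 15.8 to 123 FPKM in Norm F/F and 131 to 170 in HFrD F/F, and 5 fibroblast markers to 171 to 379 and 124 to 143, both without overlap. Also apart were macrophage markers, at 14.3 to 28.2 and 10.1 to 13.3 FPKM, red blood cell markers, at 103 to 387 and 76.2 to 99.1, and skeletal muscle markers, at 24500 to 33200 and 22400 to 23800, with no marker at 0 throughout a group. Their part in these differences was not tested.

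In ChMKO 14 of 34 genes were called, 6 higher and 8 lower, against 64.0% of 10733 genes, 19.4% higher and 44.6% lower. All Norm ChMKO libraries belong to set B and all HFrD libraries to set A, so diet and set cannot be told apart in this comparison. Other cell types moved as well, with 7 endothelial markers at 105 to 116 FPKM in Norm ChMKO and 61.4 to 69.1 in HFrD ChMKO and 5 fibroblast markers at 219 to 441 and 125 to 155. Red blood cell markers were at 217 to 407 and 62.3 to 191 FPKM, liver markers at 21.8 to 264 and 0.0869 to 0.247, and skeletal muscle markers at 32300 to 37900 and 22400 to 23600. Of these markers Apoa1, of the liver list, was at 0 throughout HFrD ChMKO. Slow-twitch markers overlapped, at 6.31 to 125 and 52.4 to 226 FPKM, and the part of these cell types was not tested. The higher genes were mostly uptake genes. Lpl measured 28.7, 38.9, 43.6 and 53.5 FPKM in Norm ChMKO and 86.1, 106, 109.6 and 119.7 in HFrD ChMKO (log2 fold change 1.36, 95% interval 0.97 to 1.75, adjusted p = 0.000136). Acsl3 measured 6.91, 7.42, 8.07 and 9.06 FPKM in Norm ChMKO and 12.0, 16.3, 16.4 and 17.3 in HFrD ChMKO (log2 fold change 0.89, 95% interval 0.63 to 1.15, adjusted p = 0.000167). Neither group overlapped the other for these. Cd36 (0.48), Slc27a1 (0.34), Cpt1b (0.35) and Ucp3 were the other 4. The call of Cpt1b, read at under 1 FPKM in this table, was lost without Norm ChMKO library N_KO_370 or N_KO_375 or HFrD ChMKO library KO_C293 or KO_C309 (adjusted p 0.0505 to 0.0584). Ucp3 measured 54.2, 75.8, 81.7 and 145 FPKM in Norm ChMKO and 142, 148, 187 and 212 in HFrD ChMKO (log2 fold change 1.01, 95% interval 0.42 to 1.61, adjusted p = 0.0078). Lpl and Acsl3 were also higher in all of set A than in all of set B, as were 11.8% of genes, and Crat, described next, was lower in all of set A than in all of set B, as were 11.8% of genes.

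The 8 lower genes came from 4 of the 5 roles. Crat measured 84.9, 86.3, 86.7 and 89.1 FPKM in Norm ChMKO and 62.4, 65.0, 65.2 and 66.9 in HFrD ChMKO (log2 fold change -0.41, 95% interval -0.51 to -0.32, adjusted p = 4.09e-05). Cpt2, the inner carnitine palmitoyltransferase, measured 24.6, 26.0, 29.2 and 30.0 FPKM in Norm ChMKO and 17.2, 19.1, 20.2 and 20.8 in HFrD ChMKO (log2 fold change -0.48, 95% interval -0.66 to -0.30, adjusted p = 0.000655). Slc27a4 measured 2.73, 2.98, 3.37 and 3.41 FPKM in Norm ChMKO and 1.90, 1.91, 2 and 2.41 in HFrD ChMKO (log2 fold change -0.43, 95% interval -0.61 to -0.26, adjusted p = 0.00114). Every HFrD library lay below every Norm library for these 3. From the spiral Echs1 measured 10.3, 11.7, 11.8 and 11.9 FPKM in Norm ChMKO and 7.89, 8.58, 9.03 and 9.40 in HFrD ChMKO (log2 fold change -0.36, adjusted p = 0.0014). Hadh measured 32.7, 34.7, 36.8 and 40.6 FPKM in Norm ChMKO and 23.3, 27.8, 28.1 and 28.5 in HFrD ChMKO (log2 fold change -0.41, adjusted p = 0.00208), and Acads, the short-chain dehydrogenase, 21.2, 25.6, 27.3 and 29.2 FPKM in Norm ChMKO and 17.7, 18.4, 18.7 and 20.2 in HFrD ChMKO (log2 fold change -0.43, adjusted p = 0.00272). Eci1 (-0.29) and Acadvl (-0.21) completed the list. After rescaling, which moved the median of all genes from -0.17 to -0.03, and which left 5773 of all genes called with 50.5% of them higher (30.3% before), 10 genes were called higher and 3 lower: Acadl, Acadm, Etfa and Etfdh became higher and Echs1, Hadh, Acads, Eci1 and Acadvl lost their call. Acadm was also called higher without N_KO_374 of Norm ChMKO (0.28, adjusted p = 0.0227) and without KO_C309 of HFrD ChMKO (0.26, 0.0458). The interaction of genotype and diet called none of 34 genes, with all 12 of the spiral negative, and none of 10734 (10.3% with an unadjusted p under 0.05). Without N_WTc369 of Norm F/F it called 7, all lower in sign, Hadha among them (-0.43, adjusted p = 0.0451), where 1093 of 10722 genes (10.2%) were called. With a term for the sets, which are unevenly spread over these 4 groups, none of the 34 was called and 8 of the 12 genes of the spiral were negative.

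A pair of genes had values in the stress table that cannot be read as their levels. Cpt1b was listed at 0.244 to 0.944 FPKM and Etfb at 0.127 to 1.25, where the chow GC libraries held at least 92.0 and 124. On GRCm39 each shares its strand and bases with a longer gene model, Gm44502 (chr15:89300608-89313899) and Etfbl (chr7:43093552-43113011), both listed at 0. Echs1 overlaps Paox, on the other strand, which was listed at 0.55 to 1.38 FPKM. The other followed genes of that table were Cpt1a, which ran from 1.68 to 4.05 FPKM over the 24 libraries, Acot1 from 0.0561 to 0.757, Acot2 from 3.09 to 19.1, Bdh1 from 4.86 to 32.1 and Angptl4 from 0.512 to 6.85. Fabp3, at 292.5 to 906 FPKM, ranked first of the 35 in all 6 groups.

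The fifth question was whether more ChREBP changed these genes, first in GC. Between AAV-ChREBP and AAV-GFP none of 33 genes was called (Acot1 and Angptl4 were too low), against 0.00904% of 11058 genes, and none had an unadjusted p under 0.05, against 2.91%. With the replicate number as a block none was called either, and Acadl (-0.17, unadjusted p = 0.0326) and Acads (-0.14, unadjusted p = 0.0343), both with an adjusted p of 0.847, came under 0.05 before adjustment. Fabp3, the highest of the 35, was 167 ± 53.6 FPKM in AAV-GFP and 137 ± 16.3 in AAV-ChREBP (interval -0.64 to 0.19). Ucp3 was 47.5 ± 12.2 FPKM in AAV-GFP and 48.6 ± 11.6 in AAV-ChREBP (interval -0.37 to 0.46), Cpt1b 68.1 ± 4.20 FPKM in AAV-GFP and 65.9 ± 2.84 in AAV-ChREBP (interval -0.16 to 0.07) and Lpl 79.0 ± 24.4 FPKM in AAV-GFP and 71.2 ± 19.3 in AAV-ChREBP (interval -0.63 to 0.39). Cd36 (-0.06), Hadha (-0.08), Acadm (-0.09), Cpt1a (0.07), Acot2 (-0.02) and Bdh1 (-0.30) also lay within their spread. Of the 33, 29 were negative, among them all 12 of the spiral, with a median of -0.06, where 64.2% of all genes were positive. AAV-GFP 4 had the lowest mean log2 level of the 35, 4.47, and the lowest slow-twitch sum, 1.17 FPKM, while Mlxipl rose by 2.74 across these groups. The highest level, 4.83, was in AAV-GFP 3, and the highest sum, 198 FPKM, in AAV-GFP 7.

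In C2C12 cells 18 of 33 genes were called between C2C12_Ch-OE and C2C12_CON, 5 higher and 13 lower, against 30.5% of 11971 genes, 16.3% higher and 14.1% lower (Ucp3 and Bdh1 were too low to test). The differences were small, between -0.65 and 0.55, in libraries whose median coefficient of variation was 4.38% and 3.71%. All these differences compare 1 line with 1 line. Of the 8 uptake genes 7 were called, 4 of 7 shuttle genes, 4 of 12 in the spiral, 2 of 3 auxiliary enzymes and 1 of 3 in the last role, Acot1.

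**Figure D5:**
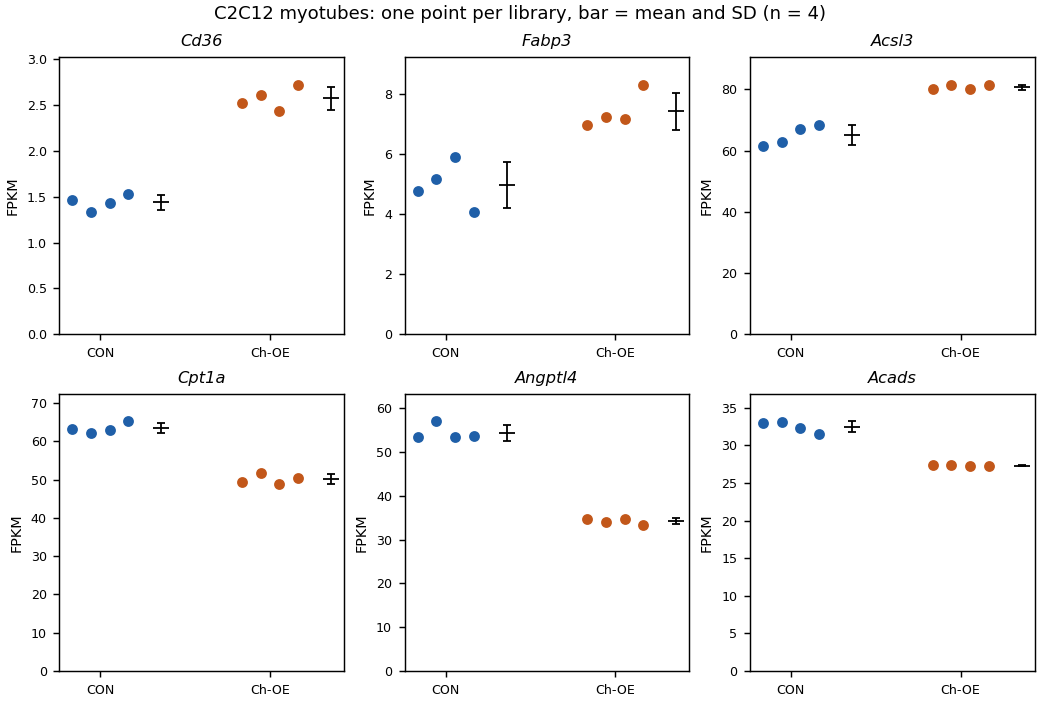
FPKM of 6 genes in the 4 libraries of each C2C12 line, with mean and SD. Cd36, Fabp3 and Acsl3 are higher in C2C12_Ch-OE, and Cpt1a, Angptl4 and Acads lower.

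Uptake genes moved in both directions. Cd36 measured 1.33, 1.43, 1.46 and 1.53 FPKM in C2C12_CON and 2.43, 2.52, 2.61 and 2.72 in C2C12_Ch-OE (log2 fold change 0.55, 95% interval 0.43 to 0.67, adjusted p = 3.10e-05). Fabp3 measured 4.06, 4.75, 5.16 and 5.88 FPKM in C2C12_CON and 6.95, 7.15, 7.23 and 8.30 in C2C12_Ch-OE (log2 fold change 0.50, 95% interval 0.31 to 0.69, adjusted p = 0.00127), and Acsl3 61.5, 62.8, 67.2 and 68.3 FPKM in C2C12_CON and 80.0, 80.0, 81.3 and 81.5 in C2C12_Ch-OE (log2 fold change 0.31, 95% interval 0.23 to 0.39, adjusted p = 6.55e-05). Each was higher in every library of the overexpressing line. Lpl differed by 0.13 (adjusted p = 0.0144). Angptl4, the inhibitor of lipoprotein lipase, had the smallest p of the 33 and was lower, at 53.3, 53.5, 53.7 and 57.1 FPKM in C2C12_CON and 33.4, 34.1, 34.7 and 34.8 in C2C12_Ch-OE (log2 fold change -0.65, 95% interval -0.72 to -0.58, adjusted p = 8.66e-08). The transporters Slc27a4 (-0.21) and Slc27a1 (-0.17) were lower too.

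The mitochondrial steps were lower where called, apart from Acadl (0.11). Cpt1a measured 62.3, 62.9, 63.3 and 65.3 FPKM in C2C12_CON and 48.9, 49.5, 50.5 and 51.8 in C2C12_Ch-OE (log2 fold change -0.33, 95% interval -0.40 to -0.27, adjusted p = 8.63e-06). It was the main CPT1 of these cells, since Cpt1b was 1.10 ± 0.101 FPKM in C2C12_CON, the reverse of the order in muscle, where AAV-GFP libraries held 63.0 to 73.1 FPKM of Cpt1b and 1.15 to 2.67 of Cpt1a. Slc25a20 measured 11.1, 11.5, 11.8 and 12.3 FPKM in C2C12_CON and 9.58, 9.99, 10.2 and 10.2 in C2C12_Ch-OE (log2 fold change -0.20, adjusted p = 0.00356). Acads measured 31.5, 32.3, 33.0 and 33.1 FPKM in C2C12_CON and 27.2, 27.2, 27.4 and 27.4 in C2C12_Ch-OE (log2 fold change -0.24, adjusted p = 7.29e-05), and Decr1 20.4, 20.7, 20.9 and 21.8 FPKM in C2C12_CON and 17.2, 18.4, 18.5 and 18.9 in C2C12_Ch-OE (log2 fold change -0.19, adjusted p = 0.00272). No library of one line reached the range of the other for these genes. The other lower genes were Acot1 (-0.51), Echs1 (-0.20), Acaa2 (-0.20), Crat (-0.18), Cpt2 (-0.16) and Eci2 (-0.17). Hadha (-0.07), Acadm (0.05) and Acot2 (-0.07) were not called, though Hadha was without C2C12_CON 4 (-0.09, adjusted p = 0.0481). Leaving out 1 library at a time gave 13 to 19 calls, the fewest without C2C12_CON 2 or C2C12_Ch-OE 4. Markers of differentiated myotubes summed to 468 to 508 FPKM in C2C12_CON and 639 to 678 in C2C12_Ch-OE, and slow-twitch markers to 393 to 430.1 and 547 to 585. Fibroblast markers summed to 2960 to 3070 and 2670 to 2860 FPKM, and Schwann cell markers to 94.8 to 103 and 76.5 to 80.3. The part of differentiation or of these lists in the differences was not tested.

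The genes around the pathway were counted from written lists, to be read against 37.9% of all genes called higher and 12.5% lower in F/F SOL against GC. Of 11 PPAR and ERR regulators, 6 were higher and 2 lower in F/F SOL than in GC, with Esrrb, an estrogen-related receptor, at 2.23, Esrra at 0.62, and the retinoid X receptors Rxrg at -1.40 and Rxra at -0.80. Of 8 tested PPAR-responsive genes outside the 35, 6 were higher and 1 lower, with Cidea, a lipid droplet protein, at 2.07, Slc25a34 at 1.99, Plin5, which ties droplets to mitochondria, at 1.89 and Fabp4, the fatty acid carrier of adipocytes and endothelium, at 1.50. Lipid droplet and lipolysis genes gave 10 higher and 1 lower of 15, among them Dgat2, which makes triglyceride (2.75), and the lipases Mgll (1.56) and Pnpla2 (0.79). Peroxisomal genes gave 8 higher and 2 lower of 15, with Cat (catalase) at 1.35 and Crot at -1.14, and ketone use 3 higher of 4, with Slc16a1 at 1.31, Acat1 at 1.06 and Oxct1 at 1.01. Genes of malonyl-CoA and AMPK went both ways, 4 higher and 3 lower of 11, the higher share near that of all genes, with the AMPK subunits Prkag3 at -3.35 and Prkab2 at -2.62. Of 24 other fatty acid handling genes 14 were higher and 2 lower, Acss1, the mitochondrial acetyl-CoA synthetase, at 1.73 among them. In ChMKO, where 41.0% of all genes were called higher and 16.9% lower, the counts were 7 higher and 2 lower of 11 regulators, 5 and 1 of 8 PPAR-responsive genes, 11 and 1 of 15 droplet genes and 10 and 2 of 15 peroxisomal genes. They were 4 and 0 of 4 for ketone use, 4 and 4 of 11 for malonyl-CoA and AMPK and 15 and 3 of 24 for other handling.

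In HFrD against Norm in ChMKO, where set and diet coincide, 4 regulators were higher and 5 lower of 11, against 64.0% of all genes called, 19.4% higher and 44.6% lower. Ppargc1a, which encodes PGC-1α, was higher by 1.67, Esrrg by 1.05 and Ppara by 0.80, and Rxrg was lower by 0.57 on the log2 scale. The other lists gave 2 higher and 1 lower of 9 PPAR-responsive genes, 2 and 6 of 16 for lipid droplets, 1 and 3 of 11 for malonyl-CoA and AMPK, 1 and 5 of 16 for peroxisomes, 0 and 1 of 5 for ketone use and 6 and 15 of 25 for other handling. The share called was above that of all genes for regulators and other handling and below it for the other 5 lists. In Hypo against Norm in ChMKO the lists held 1 called gene, Ppara (log2 fold change 1.04, adjusted p = 0.0425), and in F/F neither hypoxia nor HFrD called any. None of the 5 contrasts of ChMKO with F/F, nor AAV-ChREBP against AAV-GFP, called a gene of these lists. In C2C12, where 30.5% of all genes were called, the lists gave 2 higher and 1 lower of 6 regulators (Nr4a3 0.26, Ppard 0.13 and Rxra -0.26), 1 and 1 of 5 PPAR-responsive genes (Fgf21 0.90 and Klf15 -0.50), and Gpam (0.12) alone of 13 droplet genes. Fasn, the fatty acid synthase, was lower there (-0.21), one of 2 higher and 3 lower of 10 in its list. Peroxisomal genes gave 0 higher and 5 lower of 15, ketone use 0 and 1 of 4 (Slc16a1 -0.42), and other handling 2 and 2 of 21.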

How the data were processed

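RNA was sequenced from GC and SOL of mice and from C2C12 cells, 62 libraries in 14 groups and 4 experiments, each with its own table. Per the labels, the authors trimmed, aligned and quantified reads to FPKM, that is fragments relative to a gene's length and a library's depth, and deposited those values. The submitters' processing notes name fastp 0.18.0, Bowtie2 2.2.8, HISAT2 2.1.0, StringTie 1.3.1, RSEM and GRCm39. For the AAV and C2C12 tables the values themselves gave the unit. The AAV table also holds the authors' own fold changes and p-values, which were not used.

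The 35 genes and all gene lists were chosen with earlier results of these data known. Each of 13 two-group comparisons was fitted on its own libraries, and each of 3 interactions on its 4 groups, with limma 3.58.1 (lmFit, eBayes with trend) in R 4.3.3 on log2(FPKM + 1) in genes whose mean over the libraries fitted reached 0.5 FPKM. Fold changes on that scale understate changes of low genes. Tests were two-sided, Benjamini-Hochberg adjusted over all genes tested, and called under 0.05. The study's own criterion was a log2 fold change of 1 or more in size with an unadjusted p under 0.05. The fits were tested on simulated data with 200 changed genes. Python 3.11.15, pandas 2.3.3 and numpy 2.4.6 gave the other values.

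Depth could be read in the stress table alone, where FPKM times gene length gave whole reads (at least 99.9% of positive values within 0.05 of one), 14473169 to 23460511 on genes per library; limma's voom on those reads was an alternative. In the other tables depth is unknown. No 2 libraries of a table were identical.

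Same-numbered AAV libraries correlated at 0.211 to 0.49, each above 0.1, so the fit with a replicate block is given beside the main one, which has none. The numbers are not shown to pair the libraries, since AAV-GFP 4 correlated at 0.341 with AAV-ChREBP 1 and at 0.245 with its own number. On the first principal component (33.6% of the variance) numbers 1, 3 and 4 of both groups lay on one side and 7 and 8 on the other. The labels do not name what parts them. One F/F SOL library is numbered 59 in its title and 69 in its description, which was followed. Where the labels do not name separate cultures, p-values measure the spread between these samples.

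Alternatives were another pseudocount (0.1), no filter and one at 5 FPKM, rescaling by median ratios, a replicate block, and leaving out each library. A term for the 2 sets of stress libraries, each set alone, and the sum of the 2 Fabp3 rows of the chow table were chosen after seeing the data. Elsewhere the Fabp3 row with the higher mean was used. In each comparison up to 8 called genes of the 35, those with the smallest p, are named with library values, 12 genes are followed in every group, and pathway lists give up to 4 called genes each. Promoter windows are RefSeq's on GRCm38.p6.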

Additional observations from a re-analysis of the deposited data

Results flagged for a closer look

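Of 182 sets of 4 or 5 libraries examined for the followed genes and the mean level of the 35 genes, 20 held a library far from the rest (Dixon's 95% criterion), and chance gives about 1 in 20. No gene moved in opposite directions in every library of a pair of groups among 210 examined.

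The library with most such values was H_KOc340 of Hypo ChMKO. Its Hadha was 63.9 FPKM against 42.6 to 44.4 in the other 3, its Acot2 19.1 against 5.83 to 7.47 and its Bdh1 32.1 against 11.2 to 11.7. Its mean over the 35 genes was 4.81 on the log2(FPKM + 1) scale against 4.32 to 4.35.

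Bdh1, the mitochondrial enzyme that interconverts the ketone bodies, stood apart in 4 other groups, each time on the high side. It was 22 FPKM in ChMKO GC 72 (others 5.20 to 9.79), 95.9 in F/F SOL 58 (59.8 to 69.9), 25.2 in N_WTc369 of Norm F/F (6.40 to 8.28) and 17.9 in WT_C292 of HFrD F/F (11.5 to 12.4).

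Angptl4, an inhibitor of lipoprotein lipase, was 1.40 FPKM in ChMKO GC 74 (others 0.583 to 0.779), 4.14 in WT_C310 of HFrD F/F (1.13 to 1.57) and 57.1 in C2C12_CON 2 (53.3 to 53.7). Acot1, a cytosolic thioesterase, was 0.509 in F/F GC 58 (0.149 to 0.226) and 3.14 in ChMKO SOL 72 (2.21 to 2.31). Fabp3, the muscle fatty acid binding protein, was 696 in H_WTc341 of Hypo F/F (317 to 357) and 166 in AAV-ChREBP 7 (128 to 134). Cpt1b was 0.656 in N_KO_380 of Norm ChMKO (0.274 to 0.338), in the table where it cannot be read as its level. In C2C12_Ch-OE, Lpl was 25.7 in library 4 (27.6 to 28.0) and Hadha 62.6 in library 3 (65.6 to 66.04). Ucp3 was listed at 0 in C2C12_CON 2 and at 0.03 in the other 3, and at 0.08 in C2C12_Ch-OE 4 against 0.03 in the other 3.

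The chow table lists Fabp3 on a pair of rows, and the one not used had a mean of 21.8 FPKM over the 20 libraries, against 35.4 for the one used. It averaged 19.9 in F/F GC and 32.3 in F/F SOL, and 17.3 and 17.8 in ChMKO.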

How the results depend on the processing

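Over 2877 alternative values of the followed genes, 2678 kept their direction and side of the threshold, 14 lost a call, 13 gained one, 172 changed sign while uncalled and 0 changed sign in a call. Within set A, F/F Hypo against Norm called 1 of the 35 genes, Ucp3 (80 of 10698 genes in all), and F/F HFrD against Norm called 4 (99 of 10599), where all libraries called none, with or without a term for the sets. The cause was not tested. Leaving out 1 library at a time gave 30 to 32 calls in F/F SOL against GC, 33 to 34 in ChMKO SOL against GC, 13 to 16 in ChMKO HFrD against Norm, 13 to 19 in C2C12 and 0 to 7 in the interaction of genotype and diet, and 0 in each other comparison. Cpt1a in F/F SOL against GC lost its call without GC 57, 58 or 69 or SOL 58, 69, 70 or 71 (log2 fold changes 0.39 to 0.52) and after rescaling (0.31). GC and SOL libraries share numbers, but no label says that these are the same mice, and the deviations of same-numbered libraries correlated at -0.024 to 0.323 in F/F and 0.019 to 0.05 in ChMKO, where not every library correlated best with its own number, so no pairing was assumed. A replicate block on those numbers called 35 genes in F/F (6467 of 13235 genes in all), adding Ucp3 (-1.08), Acsl3 (-0.40) and Angptl4 (0.46), and 34 in ChMKO (7266 of 13080). With a block on the AAV numbers, which are not shown to pair the libraries, 0 were called (1 of 11058 genes in all). The C2C12 numbers do not pair the libraries (correlations -0.094 to 0.176), and the block called 18 there as without it (3357 of 11971 genes in all with the block). Over all genes, ChMKO Hypo against Norm called 95, but 6 with no filter and 166 after rescaling. SOL on chow called 3 and none with the filter at 5 FPKM. With voom on recovered reads ChMKO HFrD against Norm called 14 of the 35 and 6910 of all genes. Depth sets no limit that can be stated for the chow, AAV and C2C12 tables.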
